A study of Mus musculus with 18 samples.

Results

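The libraries compared here are the 6 control-guide (sgScr) libraries of a mouse esophageal organoid series of 18: 3 from cultures labelled premalignant and 3 from cultures labelled tumor. They were chosen by label, as the sgScr count columns of the premalignant and the tumor table, and the tables were joined by gene symbol. Organoids are balls of epithelial cells grown in a matrix gel, and the series uses them to ask how loss of the TGF-beta receptor Tgfbr2 changes esophageal squamous cancer. All 6 libraries carry the same declared genotype, Trp53-/-;Myc OE; sgCdkn2a, that is, loss of the tumor suppressor Trp53, overexpression of the growth regulator Myc and a guide RNA against Cdkn2a. The other 12 libraries are 2 premalignant sgTgfbr2 sets of 2 libraries each, 2 tumor sgTgfbr2 libraries, and tumor sgTgfbr2 organoids treated with vehicle (3 libraries) or with PB at 2 µM (3 libraries), which are used here for levels set side by side; the 6 sgTgfbr2 libraries without vehicle or PB also enter 1 alternative fit.

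The stated culture medium is shared by all groups and holds EGF at 50 ng/mL, FGF10 at 200 ng/mL, Noggin at 100 ng/mL and R-spondin 1 at 250 ng/mL, medium conditioned by Wnt-3A producing cells at 10%, the ROCK inhibitor Y27632 at 10 µM and A83-01, an inhibitor of the type I TGF-beta receptor, at 2 µM. The promoter that drives Myc, the number of clones and the number of animals behind a group were not found in the labels used here. The 2 stages were deposited in separate tables, so the declared stage and any batch of a table cannot be told apart by any fit. The labels name no separate culture or mouse behind each of the 3 libraries of a group; p-values therefore reflect only how much these libraries vary, and that variation may be technical.

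The esophagus is lined by a stratified squamous epithelium. Its basal cells hold the keratins Krt5 and Krt14, sit on laminin through integrins and divide; cells that leave the basal layer switch to Krt4 and Krt13, and in the mouse the surface cells build a cornified envelope of cross-linked proteins such as loricrin, repetin, the small proline-rich (Sprr) and the late cornified envelope (Lce) proteins. Krt6a, Krt16 and Krt17 are keratins of wounded and hyperproliferative epithelium, and Krt8 and Krt18 are keratins of simple epithelium. The muscle coat of the mouse esophagus is striated.

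Library totals were 17068198 to 21784140 counts in the premalignant and 16837439 to 21578811 in the tumor libraries, so that 3 counts, the level that a count of 0 allows, are 0.138 to 0.178 CPM (counts scaled to a common library size). Between 15539 and 15717 genes had a count in the premalignant libraries and between 16387 and 16690 in the tumor libraries. The 10 genes with the most counts took 5.72% to 6.05% of a premalignant library and 17.3% to 18.4% of a tumor library, where Krt4 alone took 61413 to 66988 CPM. Across genes, Spearman's rho was 0.988 to 0.997 between libraries of 1 group and 0.669 to 0.677 between groups. Of 14437 genes tested with edgeR's quasi-likelihood test, 11417 (79.1%) passed an adjusted p of 0.05, with 6002 (41.6%) higher and 5415 (37.5%) lower in the libraries labelled tumor. When a log2 fold change of 1 or more in size was also required, 7364 (51.0%) passed, of which 4331 (30.0%) were higher and 3033 (21.0%) lower. Of the called genes 52.6% were higher with TMM scaling, 39.9% when libraries were scaled to 22 pan-epithelial genes, and 38.1% when scaled to library totals. The median of all genes lay at 0.05 on the log2 scale with TMM and moved by -0.41 and -0.48 under those scalings. Under pan-epithelial scaling 82.0% of genes passed, 32.8% as higher and 49.3% as lower, and without regard to a test all 3 tumor libraries lay above all 3 premalignant ones for 42.2% of genes and below them for 38.3%. Of the 11417 called genes 317 changed sign under the pan-epithelial and 457 under the library total scaling. With most of the transcriptome past the threshold, a list is read below against these shares. Values per library are normalized CPM (TMM) in the order of replicates 1, 2 and 3 unless stated otherwise, and log2 fold changes are tumor minus premalignant, from edgeR, with their SE; a value that follows "by" or stands alone in parentheses after a gene is such a log2 fold change. Summed levels of lists are CPM of the library total.

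The genes named in the declared genotypes were looked at first, since they check the labels. Cdkn2a (chr4:89274471-89294653, minus strand, GRCm38), which encodes the cell cycle inhibitor p16INK4a and the p53 activator ARF, stood at 238, 250.3 and 222 in the premalignant libraries and at 0.621, 1.35 and 0 in those labelled tumor. That is 16327 counts against 34, with no overlap and 1 tumor library at 0. The log2 fold change was -8.39 ± 0.28 (edgeR adjusted p = 1.26e-16). In the library totals' CPM, every other group of the series held 136 to 382 CPM of Cdkn2a, the sgTgfbr2 tumor libraries included, while the 3 sgScr tumor libraries held at most 1.11. A guide RNA need not lower the transcript it cuts, so neither level shows whether the guide acted.

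Myc (chr15:61985391-61990374, plus strand) was 342, 251 and 342 against 52.9, 50.6 and 55.2. Each of the 3 tumor libraries lay below each premalignant library, with a log2 fold change of -2.56 ± 0.13 (edgeR adjusted p = 9.18e-14), although the labels declare Myc overexpression in all 6. In CPM of the total, the sgTgfbr2 tumor libraries held 51.9 to 93.4, near the 41.8 to 47.5 of the sgScr tumor libraries, and the other groups 290 to 648. Trp53 transcripts were counted in all 6 libraries, at 81.3, 79.5 and 77.2 against 61.6, 55.1 and 56.5 (-0.46 ± 0.11, edgeR adjusted p = 5.66e-04). All 6 are declared Trp53-/-, so neither level shows whether the transcript was lowered by it. Tgfbr2, which the control guide leaves alone, was 159, 155 and 183 against 141, 135 and 150.1 and did not pass the test (-0.22 ± 0.10, edgeR adjusted p = 0.0591). It passed, as lower in the libraries labelled tumor, under the pan-epithelial and library total scalings (-0.63 and -0.70) and without tumor replicate 3 (-0.26). Myc overexpression is declared for all 6 libraries and none without it was compared, so neither Myc level shows whether it was present. Cdkn2a sets the 3 sgScr tumor libraries apart from every other group. They are therefore called "labelled tumor" from here on, and every direction below rests on that label.

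**Figure D1:**
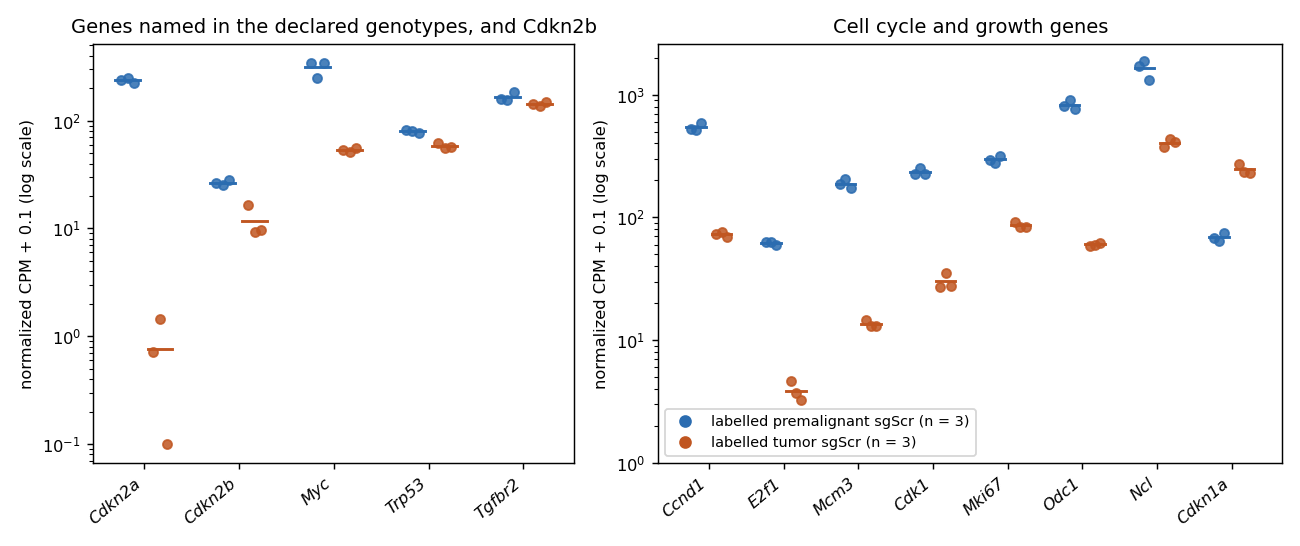
Normalized CPM plus 0.1 (log axis) of the genes of the declared genotypes with Cdkn2b (left) and of cell cycle and growth genes (right), 1 point per library and a bar at the mean of 3. Cdkn2a falls to 0, 0.621 and 1.35 CPM in the libraries labelled tumor, Tgfbr2 lies close between the groups, and Cdkn1a is the plotted gene of the right panel with its tumor points above.

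Markers of cell types other than epithelium were checked next, because organoid cultures are declared epithelial. All 20 skeletal muscle genes tested rose in the libraries labelled tumor (median log2 fold change 11.54, or 11.22 with genes at 0 placed at their bound, against 0.05 for all genes). Their summed level was 12 to 14.5 CPM in the premalignant and 24096 to 25076 CPM in the tumor libraries, so the groups did not overlap. Acta1, the actin of skeletal muscle fibres, was 0.149, 0 and 0 against 9539.9, 9834 and 9477, or 3 against 466060 counts; their ratio was 221109 (95% counting interval 75659 to 1072180.0). Myh8, a skeletal myosin heavy chain, Myl3, a myosin light chain, and Sln, an inhibitor of the muscle calcium pump, had no count in any premalignant library. Placed at 3 counts for the whole group, the most that a count of 0 allows, they give bounds: the tumor libraries were at least 27521-fold, 22639-fold and 20902-fold higher. In the sgTgfbr2 tumor libraries the same sum was 24.2 to 25.5 CPM, and in no other group was it above 25.6.

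Stromal, immune and vessel markers were higher as well. Of 12 fibroblast and fibrillar matrix genes 11 rose and none fell, with a sum of 180 to 234 against 3818 to 3970 CPM. Col3a1, a fibrillar collagen, stood at 0 in the 3 premalignant libraries and at 1117, 1062 and 985 in those labelled tumor, at least 24281-fold higher, and Dcn, a collagen-binding proteoglycan, at 0.0991, 0.238 and 0 against 1266, 1568 and 1623. All 13 immune genes tested rose (51.6 to 73.2 against 1234 to 1292 CPM), among them Lyz2, a lysozyme of macrophages and neutrophils (0 in every premalignant library against 878, 924 and 870.4), and the complement gene C1qa (0, 0 and 0.0425 against 130.3, 121 and 95.3). Of 10 endothelial genes 9 rose (30.0 to 33.1 against 179 to 200 CPM), including Pecam1 (0.0991, 0.238 and 0.128 against 41.8, 49.3 and 49.3). Among smooth muscle genes 8 rose and 1, Smtn, fell; Des, the intermediate filament of all muscle, went from 0, 0 and 0.128 to 2052, 1932 and 1821. All 4 adipocyte and 5 mast cell genes tested rose, 7 of 8 neural and Schwann genes rose and 1 fell while the sum of that list overlapped between the groups (101 to 111 against 106 to 115 CPM), and the single erythroid gene tested, Alas2, rose from 0.644, 0.397 and 0.17 to 9.81, 12.6 and 11.1 CPM. The 4 haemoglobin genes of the erythroid list had no count in any of the 6 libraries. The mast cell proteases Tpsb2, Mcpt4, Cpa3 and Cma1 were at 0 in each premalignant library and between 2.9 and 9.56 CPM in each tumor one.

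The sgTgfbr2 tumor libraries of the same table also held fibroblast (3038 to 3139 CPM), immune (1142 to 1253) and endothelial (170 to 172) markers. Those of the vehicle and PB groups held 224 to 256, 51.5 to 63.4 and 4.76 to 14.6. The smooth muscle sum was 1812 to 1985 CPM in the sgTgfbr2 tumor libraries and 2003.5 to 2203 in the sgScr libraries labelled tumor. With vehicle or PB it was 113 to 148 CPM. Adipocyte (44.3 to 53.4 against 42.6 to 47.0 CPM) and mast cell sums (49.6 to 54.4 against 19.2 to 21.5) were also held by both groups of the tumor table. In bulk RNA, fewer cells of a type and less RNA per cell cannot be told apart, here or below. The same 3 libraries hold this muscle, stromal and immune RNA in each comparison below, and its part in those results was not tested.

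**Figure D2:**
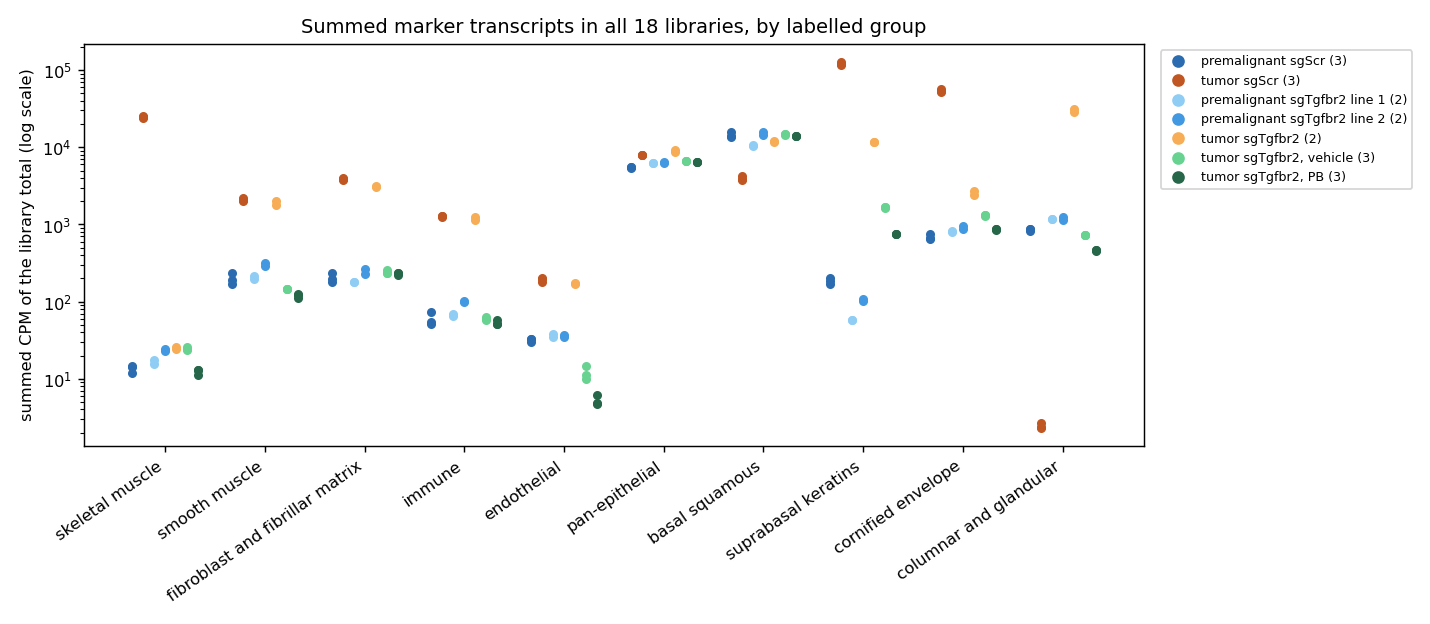
Summed CPM of the library total (log axis) for 10 marker lists in all 18 libraries, 1 point per library, coloured by labelled group with the number of libraries in brackets. The sgScr libraries labelled tumor are highest in skeletal muscle (24096 to 25076 CPM), suprabasal keratins (117485 to 126443) and cornified envelope (52670 to 57558). They are lowest in basal squamous (3802 to 4291 CPM) and in columnar and glandular markers (2.32 to 2.70 CPM). In the columnar list the sgTgfbr2 tumor libraries are highest (28485 to 31609 CPM), with Pgc alone at a mean of 25660. In the premalignant sgScr libraries Pgc had no count, and Krt18 and Krt8 had means of 653 and 202 CPM. The sgScr libraries labelled tumor and the sgTgfbr2 tumor libraries lie beside each other in smooth muscle, fibroblast, immune and endothelial markers.

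Epithelial transcripts were present in all 6 libraries. The 22 pan-epithelial genes summed to 5350 to 5504 CPM in the premalignant and 7869 to 7916 in the libraries labelled tumor, without overlap. With TMM 12 of them rose and 7 fell, with a median of 0.35 that turned to -0.06 under pan-epithelial and -0.13 under library total scaling. Single members moved much further than the list: Cldn7, a claudin of tight and lateral junctions, fell from 71.7, 70.1 and 71.4 to 0.497, 0.0561 and 0.0691 (-8.38 ± 0.28), while Prss8, a membrane serine protease of barrier epithelium, rose from 5.30, 6.71 and 7.40 to 98.7, 87.2 and 78.7. Perp, a desmosome component and p53 family target, rose from 639, 731 and 645 to 3292, 3805 and 3755. Most of the rise of the pan-epithelial sum lay in Perp alone. All 7 suprabasal keratins tested rose (sum 167 to 204 against 117485 to 126443 CPM). Krt4 stood at 33.5, 26.8 and 28.9 against 78647, 77366 and 71328 (11.32 ± 0.18, edgeR adjusted p = 2.38e-21), and its partner Krt13 at 125, 119 and 99.9 against 67439, 67978 and 63524 (9.17 ± 0.17). Krt78, found in suprabasal layers, rose by 12.41, and Krt80 by 5.28.

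The basal list moved the other way. Of 14 genes 12 fell, 1 (Krt15) rose and Trp63, the master regulator of squamous identity, did not pass the test (214, 216 and 235 against 182, 189.6 and 211, -0.19 ± 0.10, edgeR adjusted p = 0.0883). It passed as lower under pan-epithelial (-0.60) and library total (-0.67) scaling. Krt5 was 5299.7, 5154 and 5566 against 1708, 1589 and 1455 (-1.75 ± 0.11), and Krt14 2242, 2546 and 2239 against 1390.2, 1349.9 and 1157 (-0.85 ± 0.11). Itga3, a laminin-binding integrin, fell from 874, 775 and 1022 to 30.4, 22.1 and 25.1 (-5.11 ± 0.15, edgeR adjusted p = 7.98e-18). The laminin chains Lama3 (-3.36) and Lamb3 (-3.03) fell too. Over the wider list of epithelial integrins, laminins and hemidesmosome genes 13 of 18 fell and 3 rose.

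The ratios of keratin counts inside a library need no scaling between tables. Per 1000 counts of Krt5 plus Krt14 there were 18.8 ± 2.27 counts of Krt4 plus Krt13 in the premalignant and 49416 ± 2238 in the libraries labelled tumor (SD, n = 3 each; exact two-sided permutation p = 0.10, the smallest that 3 against 3 can give). Krt15 gave 22.6 ± 3.05 and 238 ± 9.16 per 1000, and Krt6a 267 ± 12 and 154 ± 7.5. Krt17 gave 441 ± 19.4 and 1.12 ± 0.271, and Krt8 plus Krt18 gave 94.3 ± 2.92 and 0.912 ± 0.136. All 13 ratios computed separated the groups without overlap, and each had the same exact p of 0.10, also after adjustment over the 13. Among all genes tested, 42.2% lay above and 38.3% below without overlap. The ratios use genes of lists chosen with earlier results known, so their separation is described only.

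Keratins of stress and of simple epithelium fell, with the exception of Krt6b. Krt17 was 3352, 3527 and 3276 against 4.16, 3.54 and 2.14 (-9.99 ± 0.19), and Krt16 233, 291 and 243 against 5.96, 3.65 and 4.21 (-5.80 ± 0.16). Krt6a also fell (-2.21 ± 0.11), whereas the closely related Krt6b rose from 67.4, 101 and 89.2 to 684, 576 and 566; reads of such near-identical copies may be split between them by the counting, so this pair is uncertain. Krt18 fell from 559.6, 552 and 548 to 1.92, 1.29 and 1.59, Krt8 from 177, 159 and 178 to 0.993, 0.954 and 1.11 and Krt19, a keratin of simple and progenitor epithelium, from 1012, 985 and 1183 to 3.66, 4.32 and 1.93. Of the 12 columnar and glandular genes only Krt8, Krt18 and Krt20 passed the count filter, and the list's sum was 834 to 883 against 2.32 to 2.70 CPM.

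**Figure D3:**
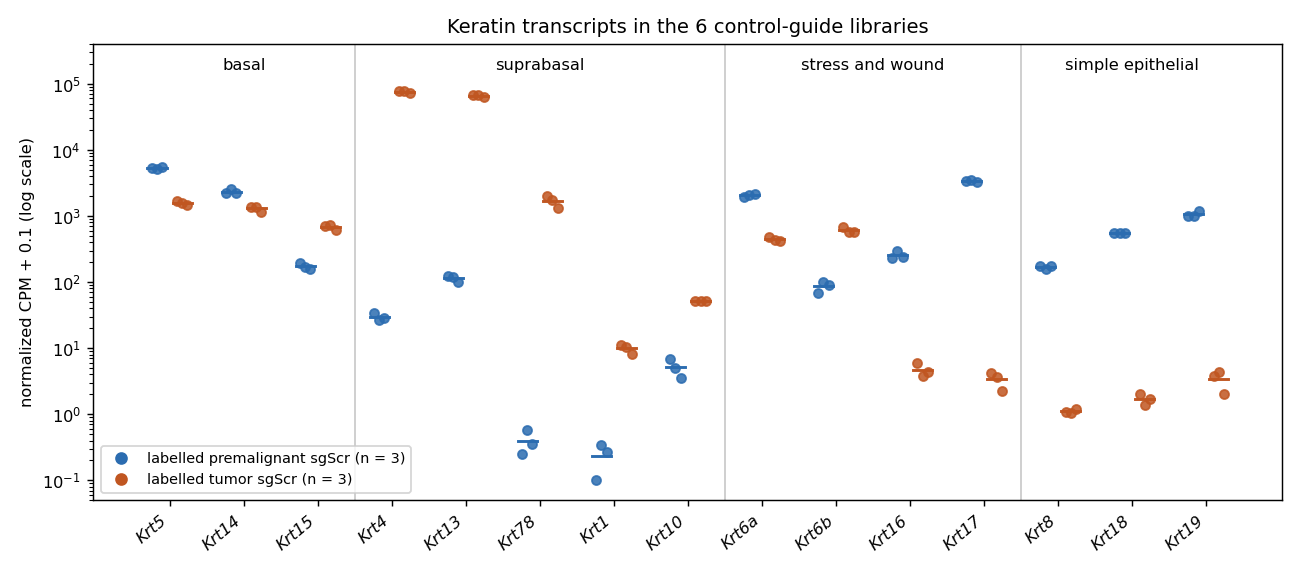
Normalized CPM plus 0.1 (log axis) of 15 keratins in the 6 control-guide libraries, 1 point per library and a bar at the mean of 3. Krt4 and Krt13 lie between 63524 and 78647 CPM in the libraries labelled tumor and at most at 125 in the premalignant ones, while Krt16, Krt17, Krt8, Krt18 and Krt19 reach at most 5.96 CPM in the libraries labelled tumor.

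Most genes of the cornified envelope rose. Of 27 tested 22 rose and 4 fell, with a median of 7.86, and their sum was 651 to 757 against 52670 to 57558 CPM. Tgm3, a transglutaminase that cross-links the envelope, had 1 count in the premalignant libraries together and 5328, 5097 and 5283 CPM in those labelled tumor. Their ratio was 360228 with a counting interval of 64653 to 14228300.0. Rptn was 0.446, 0.556 and 0.723 against 7854, 8636 and 9109 (13.83 ± 0.20, edgeR adjusted p = 7.99e-22), Sprr3 1.49, 2.06 and 2.59 against 6171, 6523 and 6658, and Lor, which encodes loricrin, 3.02, 2.82 and 3.44 against 13334, 9881 and 7475. Lce3e, Lce3b and Hrnr had no premalignant count and were at least 36219-fold, 29220.0-fold and 20196-fold higher; members of the Lce cluster are similar in sequence, so single members are less certain than the group. Not every envelope gene followed: Ivl, which encodes involucrin, fell from 10.9, 7.94 and 9.53 to 3.72, 4.21 and 4.97 (-1.13 ± 0.22), and Tchh (-1.43) and Sprr2h (-1.80) fell. Crnn, which encodes cornulin, went from 53 counts over the premalignant libraries to 0, at least 12.4-fold lower. Lor, Ivl, Tchh, Sprr2h and Crnn were singled out after their values were seen.

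The promoters of a pair of envelope genes that rose strongly, Lor and Rptn, are shown beside that of Ivl, which fell. All 3 lie in the epidermal differentiation complex on chromosome 3 and hold matches to the same 2 short patterns. The letters run 5′ to 3′ from 250 bases before the RefSeq start to 30 after it (GRCm38.p6; Lor chr3:92083113-92083392, minus strand; Rptn chr3:93393449-93393728, plus strand; Ivl chr3:92573706-92573985, minus strand). Capitals mark a TATA box (TATAAA) and an AP-1 site (TGANTCA, searched on both strands), the motif bound by Fos and Jun proteins.
Lor: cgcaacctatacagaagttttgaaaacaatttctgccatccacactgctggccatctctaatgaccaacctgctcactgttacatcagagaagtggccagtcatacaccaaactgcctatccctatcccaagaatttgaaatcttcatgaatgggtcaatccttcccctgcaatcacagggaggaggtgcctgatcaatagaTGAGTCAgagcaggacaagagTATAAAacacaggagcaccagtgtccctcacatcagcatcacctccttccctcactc
Rptn: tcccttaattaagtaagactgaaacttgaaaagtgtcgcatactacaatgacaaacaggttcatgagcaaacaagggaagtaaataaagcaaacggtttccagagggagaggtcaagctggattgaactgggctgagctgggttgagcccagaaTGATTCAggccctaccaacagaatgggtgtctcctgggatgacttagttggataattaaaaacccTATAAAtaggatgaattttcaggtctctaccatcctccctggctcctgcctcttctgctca
Ivl: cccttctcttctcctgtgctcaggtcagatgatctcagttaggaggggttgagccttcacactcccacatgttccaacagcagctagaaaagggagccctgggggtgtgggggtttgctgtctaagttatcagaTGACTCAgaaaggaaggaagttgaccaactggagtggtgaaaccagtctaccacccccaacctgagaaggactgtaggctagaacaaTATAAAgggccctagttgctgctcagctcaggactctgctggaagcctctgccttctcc
The TATA box begins 27 bases before the start in Lor, 31 in Rptn and 29 in Ivl, and the AP-1 match 48, 96 and 116 bases before it. In windows of 300 bases (250 before to 50 after the start), 12 of the 26 cornified envelope genes with a RefSeq promoter held the AP-1 letters (46.2%), against 5.63% of 10914 tested genes with a promoter. The TATA box was held by 13 of 26 (50.0%) against 7.94%. These matches describe letters in a window and are no binding sites; the direction of change differs among the 3 genes shown although each carries both motifs.

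Genes of the barrier lipids and of the shedding of surface cells rose without exception (20 of 20 tested, median 5.08). Asprv1, a protease that processes filaggrin, went from 3.07, 4.88 and 4.04 to 7421, 7228 and 6207, and Alox12b, a lipoxygenase of the lipid barrier, from 0.149, 0 and 0.298 to 697, 625 and 625. Cdsn and Dsg1a, adhesion proteins of the outermost desmosomes, went from 2.53, 1.59 and 1.83 to 1004, 836 and 828 and from 0, 0 and 0.0425 to 483, 559.6 and 592. Among 22 squamous transcription factors 12 rose and 6 fell (11 and 10 under pan-epithelial scaling). The regulators of late differentiation led: Hopx (6.02 ± 0.15), Prdm1 (5.83 ± 0.17), Zfp750 (4.55 ± 0.12) and Grhl3 (4.35 ± 0.12). Grhl3 was 10.3, 11.4 and 12.4 against 233, 222 and 242, so its groups were far apart compared with their spread.

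Outside the lists, protease inhibitors and secreted defence genes stood out. Serpinb3c, a clade B serpin of squamous epithelium, had no count in the premalignant libraries and 2735, 3249 and 3369 CPM in those labelled tumor (at least 71499.9-fold higher). Its relatives Serpinb3a and Serpinb12 stood at 3475, 4303 and 4466 and 5455, 6417 and 6236 CPM in those libraries, against at most 0.128 CPM in any premalignant one. The antimicrobial defensin Defb4 and the secreted Bpifa5 were at 0 in each premalignant library and at 729, 978 and 864 and 503, 567 and 516 CPM in the others. Serpinb3 genes are near-identical copies, so their single values are uncertain. At the other end, Calcb, a calcitonin gene-related peptide, fell from 167, 139 and 156 to 0.124, 0 and 0 (ratio 3707, 95% counting interval 1026 to 30611, from 2 counts). Hmga2, a chromatin protein of embryonic and transformed cells, fell from 66.7, 64.6 and 69.3 to 0, 0 and 0.691. Il24, a cytokine, and Wnt7a, a Wnt ligand, had 618 counts each over the premalignant libraries and 0 in those labelled tumor, at least 145-fold lower.

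Every gene of the 3 growth lists fell: 26 of 26 in replication and G1/S (median -2.60), 22 of 22 in mitosis (-2.27) and 26 of 26 MYC target and ribosome biogenesis genes (-1.77), where 37.5% of all genes fell. The same 26, 22 and 26 fell under the pan-epithelial, library total and DESeq2 scalings. Low sums were also found in the sgTgfbr2 libraries of the tumor table, in CPM of the total. Mitosis genes summed to 633 to 656 there, against 617 to 655 in the sgScr libraries labelled tumor and 3942 to 4890 with vehicle or PB. For replication these ranges were 883 to 895, 406 to 429 and 1416 to 2262, and for ribosome biogenesis 4027 to 4077, 2694 to 2878 and 6123 to 6629. Mcm3, a subunit of the replicative helicase, went from 188, 204 and 175 to 14.6, 12.9 and 12.9 (-3.81 ± 0.12, edgeR adjusted p = 5.86e-17). Cdt1 (-4.02), which licenses replication origins, and the transcription factor E2f1 (-4.03) fell. Bub1, a spindle checkpoint kinase, went from 114, 126 and 107 to 7.51, 8.31 and 8.01 (-3.86 ± 0.13), and Cdk1, the mitotic kinase, from 225, 251 and 227 to 27.2, 35.1 and 27.8. Among MYC targets, Odc1, the first enzyme of polyamine synthesis, went from 815, 901 and 759 to 59.0, 59.4 and 62.2 (-3.78 ± 0.11), and Cad, which starts pyrimidine synthesis, fell (-3.79). Mitochondrial ribosomal proteins moved less, with 13 of 18 lower, 1 higher and a median of -0.49.

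Set against pan-epithelial counts of the same library, these lists still separated the groups. The pan-epithelial sum was itself higher in the libraries labelled tumor (5350 to 5504 against 7869 to 7916 CPM), which lowers the ratios there. Most of that difference in the sum lay in Perp alone. With the library total as denominator, the log2 change of the replication ratio was -2.87 instead of -3.40. Per 1000 pan-epithelial counts there were 561 ± 41.3 replication counts in the premalignant and 53.1 ± 1.45 in the libraries labelled tumor (SD, n = 3; exact p = 0.10). Mitosis gave 768 ± 22.6 and 79.9 ± 2.42, and ribosome biogenesis 2474 ± 222 and 356 ± 12.4. Myc itself gave 67.6 ± 12.9 and 5.68 ± 0.347, and Cdkn2a 51.2 ± 2.44 and 0.0696 ± 0.0708.

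The promoters of the mitotic genes Ccnb2, a cyclin chosen after its values were seen, and Cdk1 are shown as members of the mitosis list. Promoters of such genes often hold a known pair of motifs. Ccnb2 was 119.8, 125 and 102 against 24.3, 27.6 and 24.4 (-2.18 ± 0.12). Capitals mark the CCAAT box (CCAAT or its reverse complement ATTGG), bound by NF-Y, and the cell cycle homology region (TTTGAA, either strand), through which the DREAM complex represses mitotic genes in resting cells. The windows are those defined above (Ccnb2 chr9:70421525-70421804 and Cdk1 chr10:69352883-69353162, minus strands, GRCm38.p6).
Ccnb2: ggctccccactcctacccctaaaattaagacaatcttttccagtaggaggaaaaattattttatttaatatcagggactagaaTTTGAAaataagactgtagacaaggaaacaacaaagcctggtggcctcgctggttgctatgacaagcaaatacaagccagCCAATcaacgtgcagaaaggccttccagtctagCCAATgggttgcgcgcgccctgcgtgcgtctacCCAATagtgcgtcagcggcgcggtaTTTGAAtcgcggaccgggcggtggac
Cdk1: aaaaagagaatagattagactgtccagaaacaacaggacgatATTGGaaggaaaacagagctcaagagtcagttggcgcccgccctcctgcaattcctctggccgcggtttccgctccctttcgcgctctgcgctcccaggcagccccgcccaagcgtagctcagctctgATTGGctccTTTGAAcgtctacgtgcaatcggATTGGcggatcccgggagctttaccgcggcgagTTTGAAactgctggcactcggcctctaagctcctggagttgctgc
The cell cycle homology letters were in 14 of 19 mitosis genes with a promoter (73.7%) against 12.1% of all tested genes with one, and CCAAT in 17 of 19 (89.5%) against 38.3%. In the replication list, CCAAT was in 15 of 20 (75.0%) and TTTGAA in 2 of 20 (10.0%). The E-box CACGTG, bound by MYC and MAX, was in 4 of 21 MYC target genes (19.05%) against 9.95%. Such matches are letters in a window and no binding sites, and their part in the change of any gene was not tested.

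In the Cdkn2 and RB pathway list 12 of 18 genes fell and 5 rose. Ccnd1, the cyclin that drives entry into the cycle, went from 527, 518 and 587 to 72.9, 76.2 and 68.7 (-2.90 ± 0.11), and Ccnd2 fell (-3.25). Cdkn2b, which neighbours Cdkn2a, was 26.2, 25.1 and 28.2 against 16.3, 9.09 and 9.60 (-1.18 ± 0.19); it is named after its values were seen. Genes known as p53 targets had 9 of 22 higher and 10 lower (8 and 13 under pan-epithelial scaling). Of all genes 41.6% were higher and 37.5% lower (32.8% and 49.3% under that scaling). Cdkn1a, a cell cycle inhibitor that also rises in differentiating keratinocytes, rose from 68, 64.4 and 74.2 to 274, 236 and 231, as did Btg2 (1.84) and Ddit4l (5.12). The pro-apoptotic Pmaip1 fell from 69.0, 70.4 and 78.8 to 0.621, 1.52 and 2.49 (-5.58 ± 0.23). Of 10 MYC family genes tested 6 rose and 2 fell (4 and 4 under pan-epithelial scaling). Mxd1, a MAX partner that opposes MYC, rose from 17.2, 18.4 and 26.7 to 102, 97.0 and 103 (2.27 ± 0.14), and Mycl by 1.81.

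Metabolic lists split. Of 19 hypoxia and glycolysis genes 18 fell (median -1.71), led by the carbonic anhydrase Car9 (44.7, 41.7 and 56.2 against 1.86, 2.75 and 1.73), Ndrg1 (-3.28), Pgk1 (-2.60) and Pkm (-2.35). Aldoa, an aldolase that skeletal muscle also holds, was the member that rose (0.72). The integrated stress response and tRNA synthetase list had 20 of 22 lower and 1 higher (median -1.21), with the folate enzyme Mthfd2 at 146, 147 and 131 against 10.6, 10.9 and 12.2 and the amino acid transporter Slc7a5 at 226, 208 and 208 against 19.9, 16.8 and 18. Of 20 NRF2 and glutathione genes 13 rose and 5 fell (11 and 7 under pan-epithelial scaling). Aldh3a1, an aldehyde dehydrogenase of squamous epithelium and cornea, rose from 67.5, 68 and 52.3 to 3565, 3677 and 3402 (5.83 ± 0.14), Gstm1 by 4.17 and Me1 by 3.55, whereas Gsr, glutathione reductase, fell (-4.33). Nuclear genes of oxidative phosphorylation had 14 of 24 higher and 7 lower with TMM but 5 and 10 under pan-epithelial scaling, so no direction is given for that list. Sterol and fatty acid synthesis had 8 of 26 higher and 15 lower (3 and 18 under pan-epithelial scaling). The desaturase Scd2 fell from 1645, 1760.2 and 1777 to 209, 200.2 and 225 and Fdft1, the first committed enzyme of sterol synthesis, rose from 66.1, 72.2 and 69.1 to 297, 336 and 317. Summed NRF2 and sterol levels were alike in both groups of the tumor table. NRF2 genes held 8312 to 8585 CPM in the sgTgfbr2 tumor libraries and 8368 to 8591 in the sgScr libraries labelled tumor. Sterol genes held 3434 to 3682 and 3441 to 3624 CPM.

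Signalling genes were examined by role. Among EGF ligands and feedback targets of the ERK pathway 13 of 22 fell and 6 rose. The ligands Nrg1 (54.0, 49.3 and 58.8 against 0.869, 2.25 and 1.52) and Hbegf (-2.90) fell, as did the ERK targets Etv4 (74.9, 75.8 and 78.8 against 2.36, 1.91 and 1.87, -5.22 ± 0.16) and Dusp6 (-2.83), a phosphatase that inactivates ERK. Of 17 immediate early genes 9 fell and 7 rose (10 and 4 under pan-epithelial scaling), with Egr1 (-2.70) and Fosb (-4.30) lower and Klf2 (3.02), which endothelium also holds, higher. Of 20 NF-kB and IL-1 family genes 14 fell and 5 rose. The neutrophil-attracting chemokines Cxcl1 (90.4, 90.1 and 117 against 0.497, 0.842 and 0.553, -7.26 ± 0.21), Cxcl2 (-6.81), Cxcl3 (-10.39) and Ppbp (-7.55) fell, and so did the granulocyte growth factor Csf3 (-6.65). The epithelial cytokines Il18 (2.48, 2.82 and 3.32 against 152, 187 and 194) and Il33 (16.1, 14.2 and 14.2 against 168, 198 and 217) rose, as did the decoy receptor Il1r2 (0.0496, 0.119 and 0 against 58.7, 79.1 and 69.8).

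The counts of the next lists stand beside 41.6% of all genes higher and 37.5% lower (32.8% and 49.3% under pan-epithelial scaling). In the TGF-beta receptor and Smad list 5 of 16 rose and 5 fell (4 and 8 under pan-epithelial scaling). The ligand Tgfb1 fell from 93.5, 102 and 113 to 17.4, 18.6 and 15.8, while Tgfb3 rose from 2.38, 1.67 and 2.00 to 23.8, 20.9 and 20.3 and the co-receptor Tgfbr3 from 5.25, 4.84 and 5.53 to 55.8, 61.9 and 67.7. Among 24 targets of TGF-beta 10 rose and 8 fell, and the median of 0.21 turned to -0.20 under pan-epithelial scaling. Igfbp3 fell (-3.40), and Tpm1 (2.71) and Thbs1 (3.19), which muscle and stroma also hold, rose. BMP and ID genes had 6 of 15 higher and 5 lower (5 and 6 under pan-epithelial scaling), with the ligand Bmp4 (5.30) and the BMP target Id1 (1.73) higher and the ligand Bmp7 (-2.09) lower. Of 14 WNT target genes 6 rose and 7 fell; Tcf7, a transcription factor of the pathway, went from 31.1, 30.1 and 28.6 to 0.621, 1.63 and 1.24. YAP/TAZ targets had 7 of 16 in each direction, and their median of 0.10 turned to -0.32 under pan-epithelial scaling: Ctgf rose (3.74) and its relative Cyr61 fell (-2.92).

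Of 15 retinoid response genes 10 rose and 2 fell (median 2.55), or 9 and 5 under pan-epithelial scaling. Crabp2, a retinoic acid binding protein, went from 15.9, 15.1 and 16.4 to 255, 264 and 254, and Aldh1a1, which makes retinoic acid, from 1.78, 2.5 and 3.40 to 119, 138 and 121, while Stra6, the receptor that takes up retinol, fell from 166, 144 and 172 to 2.36, 2.64 and 2.00. Interferon and MHC class I genes had 18 of 22 higher and 2 lower (median 1.73), among them Ifit1 (0.595, 0.714 and 0.425 against 29.9, 36.8 and 36.9) and Oasl2 (5.32); immune cells hold these genes too, and the immune marker sum was 1234 to 1292 CPM in the same libraries. The circadian list had 7 of 17 higher and 3 lower with TMM but 6 and 7 under pan-epithelial scaling.

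Mesenchymal genes mostly rose. In the epithelial-mesenchymal transition list 9 of 12 rose and 3 fell. Vim, the intermediate filament of mesenchymal cells, was 1.59, 1.67 and 1.02 against 622, 664 and 621 (8.80 ± 0.16), and Sparc, a matrix glycoprotein, 0.0991, 0.159 and 0.255 against 488, 449 and 457. Zeb1, a repressor of epithelial genes, rose by 7.23. The 3 members that fell, Twist1 (-2.66), Snai2 (-1.13) and Twist2 (-1.02), were named after their values were seen. Of 14 matrix protease and tenascin genes 6 rose and 7 fell, where 41.6% of all genes rose and 37.5% fell. Mmp2 (8.57), Timp2 (6.23) and Timp3 (8.23), which fibroblasts also make, rose, and Adam8 fell (-2.89). The fibroblast sum was 3818 to 3970 CPM in these libraries, and its part in these values was not tested.

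Signs of RNA content were read last. Of 6 nuclear long non-coding RNAs 5 rose and 1 fell, with H19, an imprinted RNA of muscle and embryonic tissue, at 6.30, 6.87 and 8.76 against 417, 376 and 342 and Neat1 higher by 2.73. Of 5 histone cluster genes tested 2 rose and 1 fell, and none of the 13 mitochondrially encoded genes was found under its symbol in the joined tables. Y-linked genes were counted in all 6 libraries; of 4 sex-linked genes tested 3 rose with TMM, but none passed under pan-epithelial or library total scaling.

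**Figure D4:**
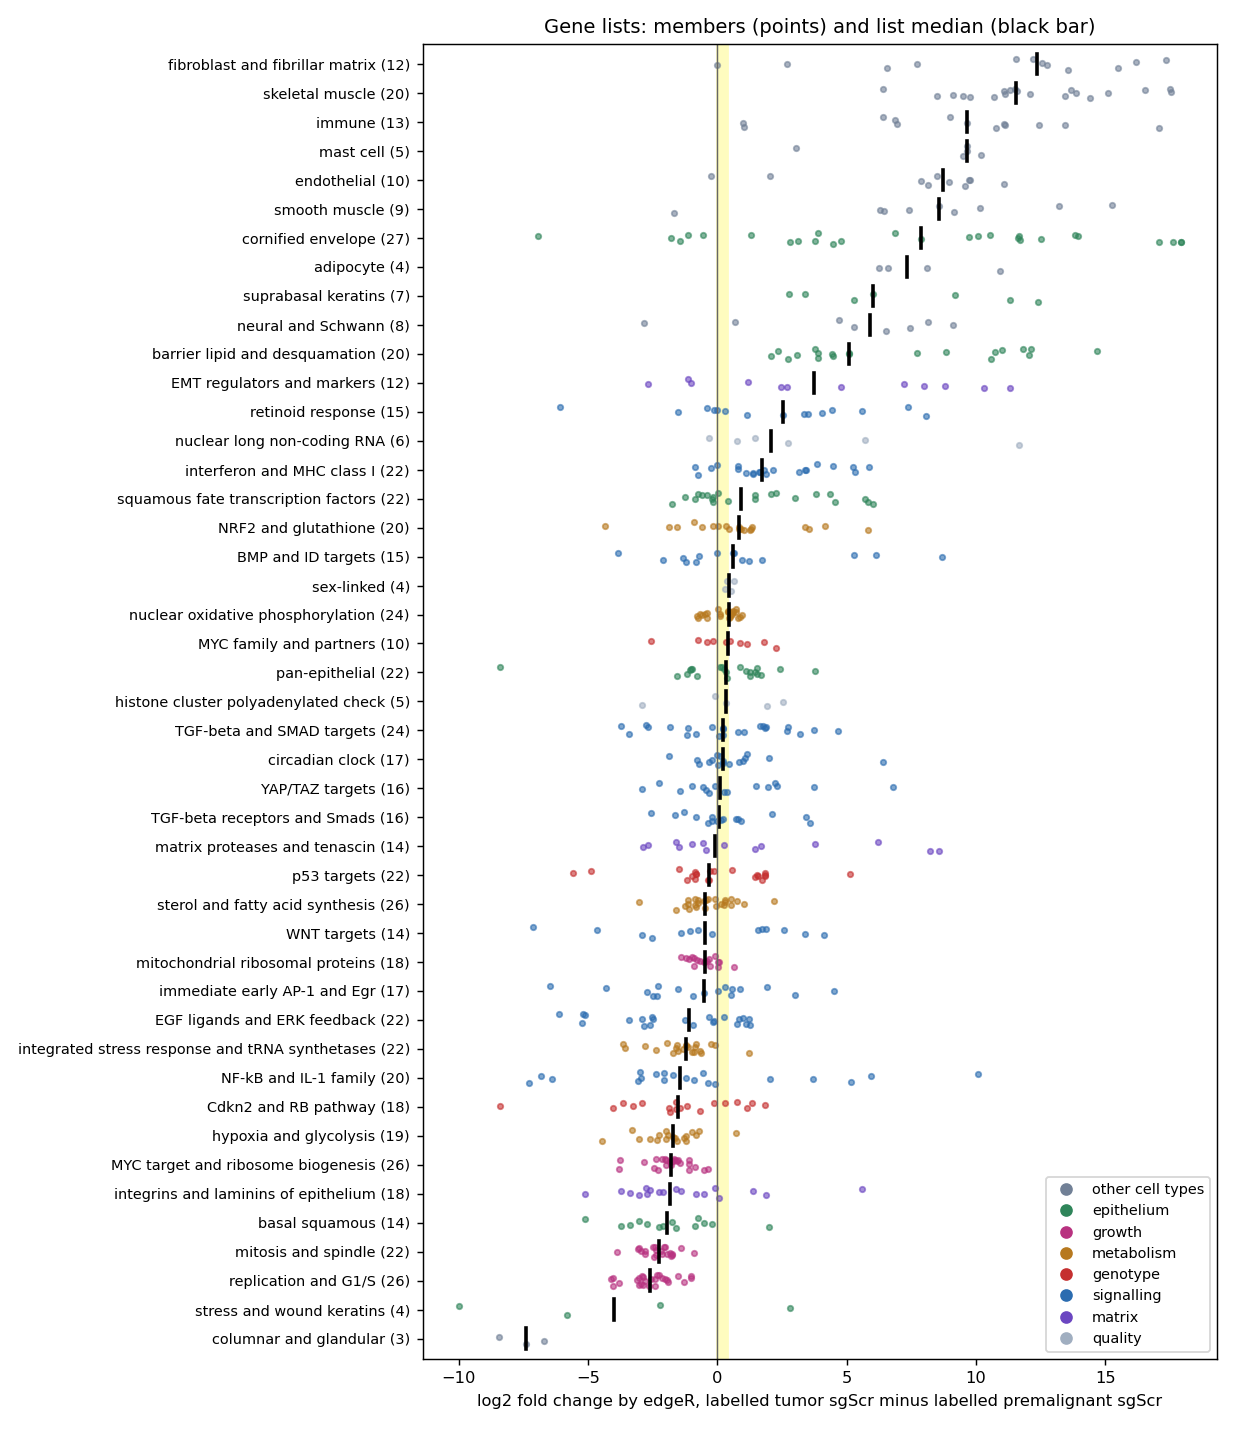
Log2 fold change from edgeR (labelled tumor sgScr minus labelled premalignant sgScr) of each tested gene of the gene lists with at least 3 tested genes; points are genes, the black bar is the list median and the number tested is in brackets. Muscle, stromal and cornified lists lie to the right (skeletal muscle median 11.54), growth lists to the left (replication median -2.60), and the yellow band from 0 to the right shows how far zero moves when libraries are scaled to pan-epithelial genes.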

How the data were processed

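RNA from mouse esophageal organoids was extracted with Trizol and sequenced in bulk, per the labels' protocols. Each of the 3 tables that the authors deposited lists 24421 genes with whole-number counts per sample, and, per the file headers, the authors' normalized values per sample and mean (a signal), log2 fold changes with errors, a test statistic (a score), p-values and adjusted p-values. STAR 2.6.0a, DESeq2 1.26.0 and mm10 are named in the submitters' processing notes; the counting program, strand setting and annotation were not stated in the sources used here. Only the counts were used. The 18 normalized columns were made per table and left out, as were the authors' fold changes, scores and p-values. The premalignant and tumor tables were joined on 24394 symbols that occur once in each table (99.8% of counts); the tumor table holds 27 symbols turned into dates and 4 rows with repeated symbols. Of the symbols, 23350 (95.7%) were found in GENCODE M21 (GRCm38) for positions; promoters came from RefSeq (GRCm38.p6).

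The 6 libraries were compared with R 4.3.3 and edgeR 4.0.16: filterByExpr with a minimum count of 10, TMM, the two-sided quasi-likelihood F test, Benjamini-Hochberg adjustment over 14437 genes and a threshold of 0.05. DESeq2 1.42.0, limma 3.58.1 (voom), other scalings and filters, a replicate block and left-out libraries were the alternatives. Normalized CPM are edgeR's CPM with TMM-scaled library sizes. Ratios of summed counts within a library were compared by an exact permutation test. Intervals (95%) and floors (3 counts) cover counting error only. The procedure was tested on simulated counts for 14239 genes, where it recovered 85.9% of 99 genes changed 2-fold and 97.9% of 97 changed 4-fold. Few genes were changed there, each up or down at random. In the data 79.1% of genes passed the threshold, so the simulation does not test the scaling between the groups.

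The libraries and the 47 gene lists were chosen with earlier results of these data known. Genes were named by rule: the targeted genes, the 10 highest and 10 lowest log2 fold changes above a mean of 5 CPM with at most 2 of a family, the same after scaling to pan-epithelial genes without other cell types' markers, up to 4 members of each list by p, and 8 defining markers. Aldoa, Ccnb2, Cdkn2b, Crnn, Ivl, Krt15, Lor, Smtn, Snai2, Sprr2h, Tchh, Trp63, Twist1 and Twist2 lie outside this rule and were named after their values were seen.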

Additional observations from a re-analysis of the deposited data

How the results depend on the processing

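The 11417 called genes became 11260 with DESeq2 (6123 higher, 5137 lower), 11482 with limma-voom, 11948 with library totals, 11842 with pan-epithelial scaling, 11435 with the replicate block and 11097 to 11581 when 1 library was left out. Where a log2 fold change of 1 or more in size was required there were 7364, of which 3033 were lower, and Trp53 (-0.46) no longer passed. Tgfbr2, not called in the main analysis, passed as lower with library totals (-0.70), pan-epithelial scaling (-0.63), no filter (-0.27), the replicate block (-0.22) and all 12 premalignant and tumor libraries in the fit (-0.28); without 1 library it lay between -0.264 and -0.146 and passed without tumor replicate 3. Ratios moved beyond 1 SD when the library total replaced the pan-epithelial sum, on the log2 scale to -3.04 for Myc, -0.94 for Trp53, -0.70 for Tgfbr2, -2.87 for replication, -2.73 for mitosis, -2.26 for ribosome biogenesis and 10.82 for skeletal muscle, each in the same direction. Of 204 other named genes, all kept direction and call with DESeq2, limma-voom and every left-out library; Eif2s3y turned to -0.11 and -0.040 with library totals and pan-epithelial scaling, where Ddx3y and Kdm5d no longer passed, and 11 did not reach the fold limit. The median of the WNT list turned from -0.49 to 0.70 with a filter of 1 CPM in 3 libraries. Replicate numbers did not pair the libraries: deviations from the group mean of same-numbered libraries correlated at 0.03, 0.11 and -0.01, and not every library correlated best with its own number. Depth limits genes below about 0.138 to 0.178 CPM, where a count of 0 shows no absence.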
